A study of Mus musculus with 16 samples.

Results

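The interaction of gemcitabine (GEM) and an agonist anti-CD40 antibody (Ab) was measured in subcutaneous PDA30364 tumors, as the amount by which the effect of GEM on each gene differed with and without anti-CD40 Ab. All 16 arrays of the series entered it, since the contrast needs all 4 treatment groups of 4 arrays each. By the protocol each group is 4 mice, which the titles leave unclear for GEM. PDA30364 is a single cell line from a mouse pancreatic ductal adenocarcinoma, and tumor cells in Matrigel were placed under the flank skin of C57BL/6-Ly5.1 mice that were 6 to 12 weeks old. Control mice received vehicle and an isotype control antibody (mIgG1), the anti-CD40 group received vehicle and anti-CD40 Ab, the GEM group received GEM and the isotype control, and the GEM/anti-CD40 group received both agents. The antibody or its control was injected on days 3, 4, 6 and 14 of treatment, and GEM (120 mg/kg) or vehicle on days 1, 5 and 12. Tumors were taken on day 22 or 23 after inoculation, and RNA from pieces of frozen tumor was hybridized to Affymetrix mouse arrays.

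CD40 is a receptor of the TNF receptor family on dendritic cells, macrophages and B cells. Its ligation by T cells, or by an agonist antibody, activates NF-kB, raises co-stimulatory and MHC molecules and induces IL-12, which in turn drives T cells and NK cells to make interferon gamma. GEM is a deoxycytidine analog that is phosphorylated inside cells, stalls DNA synthesis and inhibits ribonucleotide reductase, and it also acts on dividing immune cells. An interaction is the departure of the combination from the sum of the single-agent effects on the log2 scale, that is, from the product of the fold changes.

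The values are deposited log2 intensities, on which a difference of 1 is a 2-fold difference. For every gene the interaction is (GEM/anti-CD40 minus anti-CD40) minus (GEM minus control), which is the exact sum of a pair of parts. The first part is the control level minus the GEM level, positive where GEM alone was below control. The other part is the GEM/anti-CD40 level minus the anti-CD40 level, positive where adding GEM to the antibody went with a higher level. It is also called the excess over anti-CD40 Ab, whatever its sign. The larger part is the higher of these values with its sign, also where the interaction is below 0. A positive interaction can therefore be a recovery, in which a level that was low under GEM alone was back in the combination. It can also be a rise above both single agents, or the return of a level that was low under anti-CD40 Ab alone. The recovery of a GEM fall and the rise were each given a joint test. So were the mirror patterns of a fall below both and the loss of a GEM rise. The return from an anti-CD40 fall and its mirror had no joint test, and the recovery below means that of a GEM fall.

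Some arrays stood apart. Skin keratinocyte genes were high in control replicate 2 (mean of the list 8.69, against 4.83 to 5.22 in the other control arrays) and in anti-CD40 replicate 2 (6.85, against 4.81 to 5.08). Skeletal muscle genes were high in GEM/anti-CD40 replicate 4 (11.8, against 4.89 to 5.69). Main results are therefore also given without these 3 arrays. By their titles GEM replicates 3 and 4 could come from 1 animal. Their correlation of 0.9948 lay within the 0.994 to 0.9966 of all GEM pairs. This range includes the pair itself and cannot tell pieces of 1 tumor from tumors of different mice. Both were kept as separate samples, and the SE and p treat them as independent. The labelled tissue was checked by its ductal epithelial markers, whose mean was 11.1 to 11.8 on every array.

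No probe set showed an interaction that passed the test. With limma over the 16 arrays and Benjamini-Hochberg adjustment, 0 of 45037 probe sets (0%) had an adjusted p under 0.05, and the smallest adjusted p was 0.89. At an unadjusted p under 0.05, 1015 probe sets (2.25%) had an interaction above 0 and 1344 (2.98%) had one below 0. Among the 18193 named genes, each represented by 1 probe set, 512 (2.81%) were above 0 and 419 (2.3%) below at that threshold, and these shares are the background for each count below. The median interaction over all genes was 0.0075, and 51.9% of genes were above 0. With 4 arrays a group, the median 95% confidence interval was the value ± 0.27, so that a difference of that size was at the limit of what a typical probe set could show even before adjustment.

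**Figure D1:**
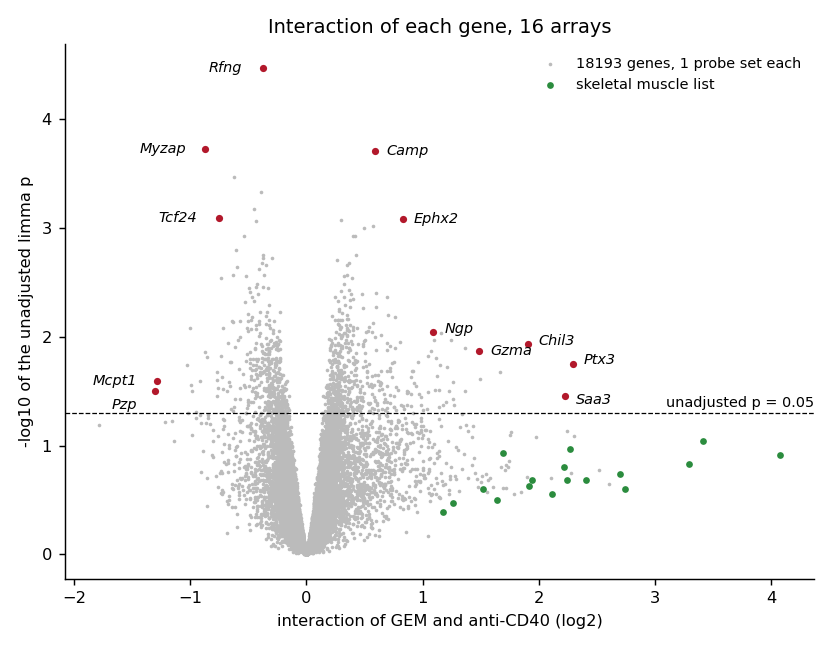
Interaction of GEM and anti-CD40 Ab (x axis, log2) against the negative log10 of limma's unadjusted p (y axis) for 18193 genes, 1 point each, with the skeletal muscle list in green and 12 genes named. No gene passed after adjustment (smallest adjusted p = 0.89), 512 genes lay above the dashed line to the right and 419 to the left, and the 17 muscle genes lay far right but below the line.

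The 4 patterns were tested in the same fit, and none was passed by any probe set after adjustment (0% for the rise above both, 0% for the recovery of a GEM fall, 0% for the fall below both and 0% for the loss of a GEM rise). The smallest adjusted p was 0.19 for the rise (Camp), 0.21 for the loss (AU021092) and 1 for the other patterns. At an unadjusted joint p under 0.05, 1044 probe sets (2.32%) had the rise, 453 (1.01%) the recovery, 1134 (2.52%) the fall and 897 (1.99%) the loss. All arrays of the combination lay above every control and single-agent array in 65 probe sets (0.144%, the rise). They lay below every such array in 67 (0.149%, the fall). For the recovery, the GEM arrays lay below all control and all GEM/anti-CD40 arrays in 99 probe sets (0.22%), and for the loss they lay above all of them in 117 (0.26%).

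Among large positive values GEM/anti-CD40 minus anti-CD40 was more often the larger part than control minus GEM. Of the 512 genes above 0 at an unadjusted p under 0.05, the larger part was GEM/anti-CD40 minus anti-CD40 in 302 (59%) and control minus GEM in 210 (41%), beside 51.8% and 48.1% of all 9435 genes above 0. The combination had the highest of the 4 group means in 311 of the 512 genes (60.7%, beside 39.2% of all genes above 0). In the others the lowest single agent was GEM for 85 (16.6%, beside 23.2%) and anti-CD40 Ab for 116 (22.7%, beside 37.6%). An interaction above 1 was measured for 146 genes, of which 30 had an unadjusted p under 0.05, and in 123 of the 146 (84.2%) the larger part was the excess over anti-CD40 Ab. Of the 146, 17 were of the muscle list and 103 were in none of the lists, some of which, such as Ttn, also encode muscle proteins. In all 17 muscle genes the excess over anti-CD40 Ab was the larger part. Their median interaction was 2.22, and 0.51 without GEM/anti-CD40 replicate 4. The split of the 146 is given with all arrays only. Without the 3 arrays with skin or muscle genes, 145 genes were above 1 and 81 were below -1, against 8 below -1 with all arrays.

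**Figure D2:**
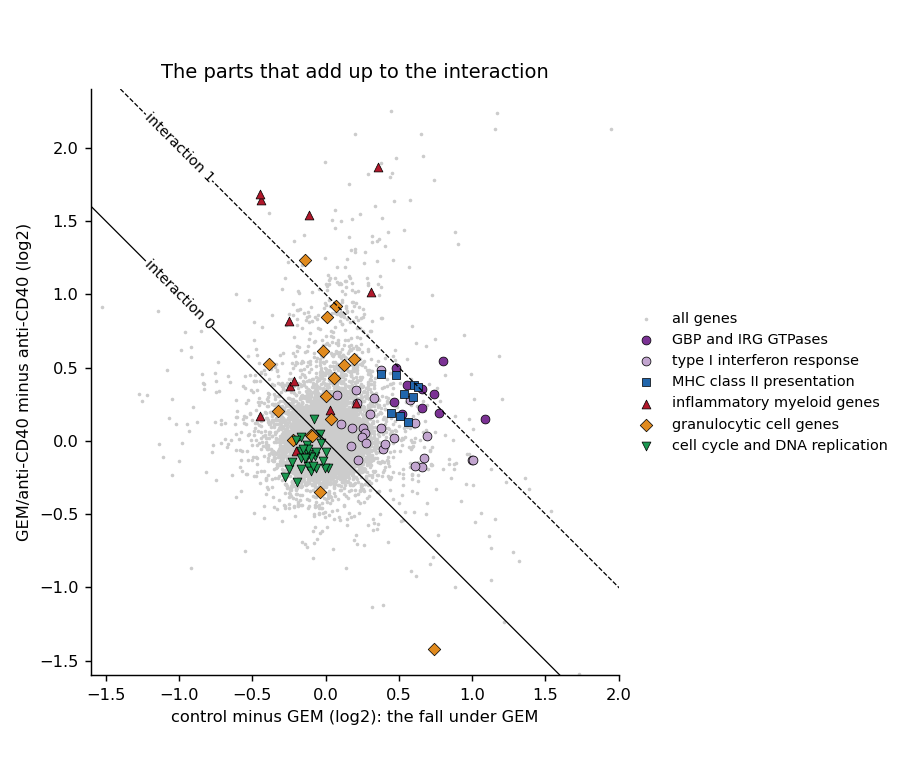
The parts of the interaction for each gene, control minus GEM (x axis, log2) against GEM/anti-CD40 minus anti-CD40 (y axis, log2), with 6 lists marked and lines where the parts add up to 0 and 1 (4 genes lie outside the axes). The guanylate-binding and immunity-related GTPases lie to the right (medians 0.66 and 0.29) and the inflammatory myeloid genes at the top left (medians -0.21 and 0.61).

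A granule gene of neutrophils gave the smallest p for a rise above both single agents. Camp, the antimicrobial peptide cathelicidin of neutrophil granules, was at 4.64, 4.80, 4.65 and 4.44 in control, 4.55, 4.61, 4.58 and 4.68 under anti-CD40 Ab, 4.59, 4.55, 4.73 and 4.73 under GEM, and 5.34, 5.37, 5.11 and 5.05 under both. All 4 arrays of the combination lay above the other 12. The interaction was 0.60 (SE 0.12, 95% interval 0.33 to 0.86, unadjusted p = 0.000198, limma), made up almost wholly of the excess over anti-CD40 Ab (0.61), and it was 0.60 without the 3 arrays. These are low levels, since the median probe set of an array was at 5.60 to 5.66. Ngp, another neutrophil granule protein, was at 4.51 to 4.98 in control, 4.54 to 4.93 under anti-CD40 Ab and 4.64 to 5.17 with GEM, and at 6.70, 6.26, 5.66 and 5.05 in the combination, where replicate 4 overlapped with GEM. Its interaction was 1.09 (SE 0.37, unadjusted p = 0.0091, limma).

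Of the 16 granulocytic genes measured, 10 were above 0 with a median interaction of 0.25, and 4 had an unadjusted p under 0.05, all above 0. Besides Camp and Ngp these were the decoy receptor Il1r2 (0.64) and the neutrophil collagenase Mmp8 (0.48). The other 6 of the 16 were below 0, and the lowest was Stfa3 (-0.685, SE 1.43), so the list did not move as a whole. For 14 of the 16 the larger part was the excess over anti-CD40 Ab. The median was 0.28 without the 3 arrays, where 6 genes above 0 and 1 below had an unadjusted p under 0.05, beside 4.34% and 3.24% of all genes in that setting. It was 0.40 without control replicate 3. The tumors are bulk tissue, in which more cells of a type and more RNA per cell cannot be told apart.

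Genes of macrophages and of inflammatory myeloid cells had larger interactions and wider errors. Chil3, a chitinase-like protein of alternatively activated macrophages and neutrophils, was at 4.34, 5.05, 3.72 and 4.65 in control, 5.91, 4.68, 5.82 and 5.50 under anti-CD40 Ab, 4.03, 4.25, 4.52 and 4.97 under GEM, and 8.97, 6.70, 6.26 and 7.60 under both. The combination did not overlap with any other group, although its own arrays spread over more than 2 log2 units. The interaction was 1.90 (SE 0.67, 95% interval 0.49 to 3.32, unadjusted p = 0.0118, limma) and was 1.36 without the 3 arrays.

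Saa3, an acute phase serum amyloid made by macrophages and stroma, was at 6.17, 7.56, 6.95 and 6.93 in control, 9.08, 8.05, 8.92 and 10.92 under anti-CD40 Ab, 6.24, 6.47, 7.15 and 6.32 under GEM, and 13.04, 11.63, 9.10 and 10.68 under both. The anti-CD40 arrays were already above all control and GEM arrays, and they overlapped with those of the combination. The interaction of 2.23 (SE 0.96, unadjusted p = 0.0354, limma) was 1.58 without GEM/anti-CD40 replicate 1 and 1.75 without the 3 arrays. The cytokine Il6 (1.43) and Acod1 (1.32), which makes itaconate in activated macrophages, had the next smallest p of the inflammatory list and neither was under 0.05 (0.0665 and 0.0677, unadjusted). Both depended on GEM/anti-CD40 replicate 1, without which they were at 0.71 and 0.76.

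In the inflammatory myeloid list, 10 of 12 genes were above 0 (median 0.52). GEM/anti-CD40 minus anti-CD40 was the larger part in all 12 and was itself above 0 in 11. The median interaction was 0.18 without GEM/anti-CD40 replicate 1, and 0.63 without the 3 arrays. That of the macrophage list was 0.27 without the same replicate, with 0 genes at an unadjusted p under 0.05. With all arrays, of 14 macrophage genes 13 were above 0 (median 0.51), with 2 at an unadjusted p under 0.05, the lysosomal glycoprotein Cd68 (0.59) and the signaling adaptor Tyrobp (0.84). Of 14 M2-like genes 13 were above 0 (median 0.43), with 3 at that threshold, which were Chil3, the lipid receptor Trem2 (0.49) and Retnla (0.72). The other probe set of Trem2 was at 0.085. Retnla rested on GEM/anti-CD40 replicate 4 (6.72, against 5.37 to 5.49 in the other arrays of the group), the array with muscle genes. The M2-like median was 0.13 without the 3 arrays, while that of the macrophage list was 0.43. Ptx3, a soluble pattern recognition protein named after its values were seen, had the largest interaction of all genes with an unadjusted p under 0.05 (2.30, SE 0.86, unadjusted p = 0.0178, limma). Its 4 arrays of the combination were at 9.35, 6.37, 5.86 and 8.96, and it was at 1.40 without the 3 arrays. The other probe set of Ptx3 was at 0.125 (unadjusted p = 0.437, limma).

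The joint test for the rise also placed other genes of myeloid cells near the top. Ccl9 and Ccl6, related CC chemokines that attract myeloid cells, were higher in each combination array (9.48 to 9.95 and 10.64 to 10.93) than in any array with anti-CD40 Ab (8.31 to 9.08 and 9.49 to 10.44) or GEM (8.27 to 9.07 and 9.39 to 10.08). Their interactions of 0.39 and 0.32 had 95% intervals that included 0 (-0.15 to 0.93 and -0.23 to 0.88). Each single agent alone was also above control for these chemokines, by 0.61 (GEM) and 0.66 (anti-CD40 Ab) for Ccl9 and by 0.49 and 0.78 for Ccl6. Thus a level above both single agents was measured here without a resolved departure from the sum of their effects. Dcstamp, a membrane protein for the fusion of macrophages and osteoclasts, had an interaction of 0.52 and the lysosomal Pld3 one of 0.33, and neither overlapped between the combination and a single agent.

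**Figure D3:**
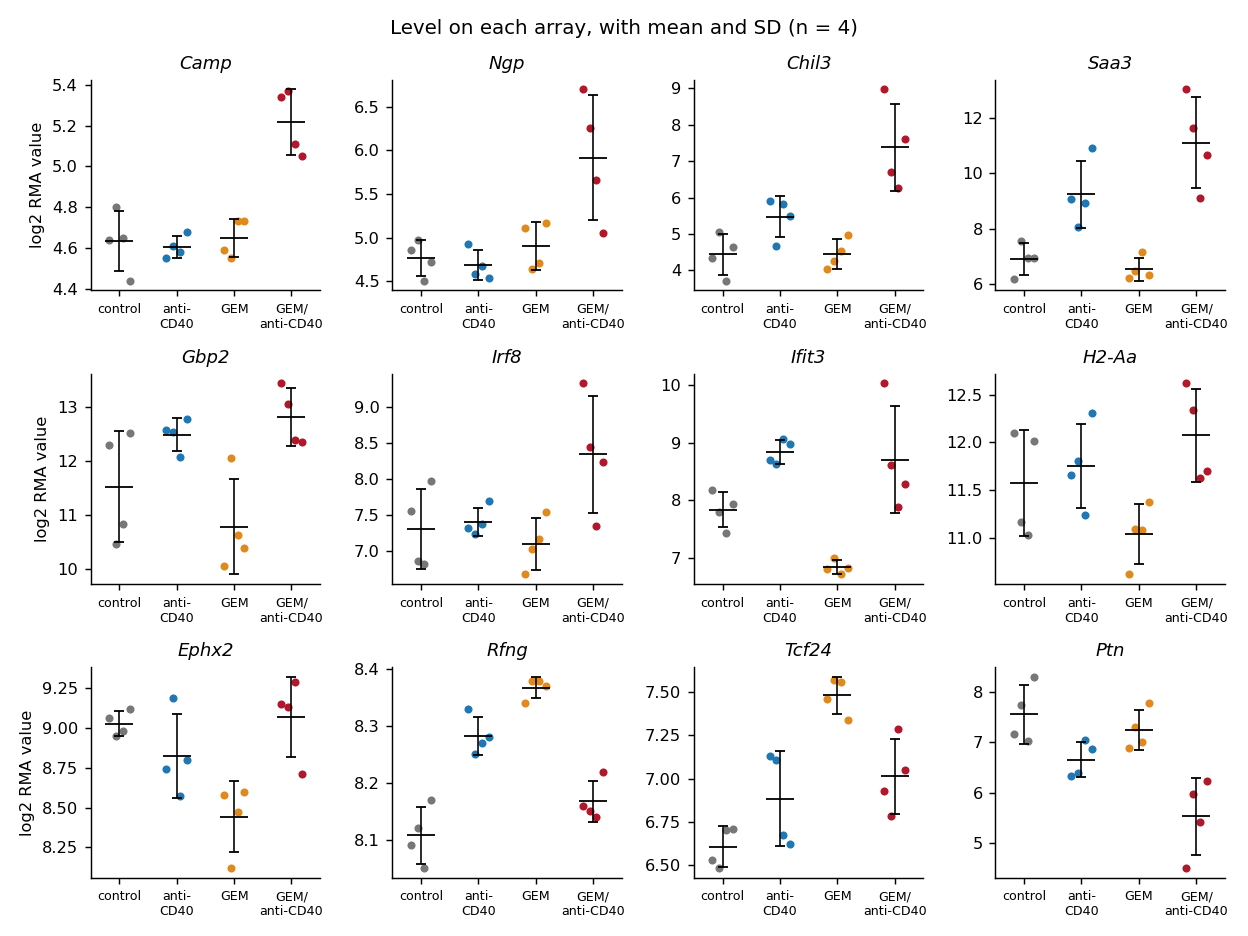
Log2 RMA value (y axis) of 12 genes on each of the 16 arrays (points, by treatment group on the x axis), with the mean and SD of each group in black (n = 4). Camp and Chil3 stand above all other arrays only in the combination, Ifit3 and Ephx2 have their lowest mean with GEM alone, Rfng and Tcf24 their highest with GEM alone, and Ptn its lowest in the combination.

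Cd40, the target of the antibody, had an interaction of 0.95 (unadjusted p = 0.0754, limma) at the probe set that represents it, and of 1.35 and 1.11 at its other probe sets (unadjusted p = 0.0441 and 0.0303). The representing probe set was at 6.11, 6.21, 5.75 and 6.13 in control, 6.04, 6.63, 5.89 and 6.80 under anti-CD40 Ab, 6.04, 5.88, 5.62 and 6.24 under GEM, and 8.36, 7.50, 6.08 and 6.82 under both. Replicates 1 and 2 of the combination were above all other arrays, while replicates 3 and 4 lay among them or close to them. Of the 16 genes of CD40 and NF-kB signaling measured, all 16 were above 0 (median 0.23), 5 with an unadjusted p under 0.05, beside 2.81% of all genes. For 12 of the 16 the excess over anti-CD40 Ab was the larger part. With the 3 arrays left out 15 were above 0 (median 0.30), 7 of them at that threshold, beside 4.34% of all genes in that setting.

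The genes of this list with the smallest p were inhibitors and subunits of NF-kB. The inhibitor Nfkbie was at 8.73, 8.45, 8.46 and 8.90 in control, 8.51, 8.72, 8.52 and 8.82 under anti-CD40 Ab, 8.26, 8.10, 8.66 and 8.31 under GEM, and 9.49, 9.37, 8.68 and 8.86 under both, and its interaction was 0.76 (SE 0.24, unadjusted p = 0.0066, limma). The precursor subunit Nfkb2 was at 0.39 (0.0675 at its other probe set) and the subunits Relb and Rela at 0.39 and 0.26. Relb, which pairs with the Nfkb2 product in the noncanonical pathway that CD40 uses, was higher in each combination array (7.93 to 8.32) than in any array with anti-CD40 Ab (7.50 to 7.81) or GEM (7.53 to 7.76). The inhibitor Nfkbib had the same separation (8.02 to 8.29, against 7.77 to 8.00 and 7.74 to 7.96) with an interaction of 0.29.

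Genes of dendritic cells and lymphoid homing were measured because dendritic cells carry CD40. Of 16 genes 15 were above 0 (median 0.38), and 2 had an unadjusted p under 0.05. The median difference from control was -0.10 under anti-CD40 Ab alone and 0.11 in the combination. The combination had the highest of the 4 group means in 9 of the 16 and the lowest in 4, so part of these interactions was a return from a lower anti-CD40 level. Ccl22, a chemokine of mature dendritic cells that attracts regulatory T cells, was at 6.51, 6.94, 6.43 and 6.96 in control, 5.99, 7.79, 6.91 and 6.70 under anti-CD40 Ab, 7.06, 6.29, 6.96 and 7.11 under GEM, and 8.73, 8.74, 7.19 and 8.35 under both. Only replicate 3 of the combination overlapped with the single agents. Its interaction was 1.26 (SE 0.51, unadjusted p = 0.0262, limma) and was 1.47 without the 3 arrays. The maturation marker Cd83 had a different pattern at 0.96, since it was 1.00 below control with anti-CD40 Ab alone and near control in the combination (-0.14). Il12b, the cytokine subunit that CD40 ligation induces, was at 0.91 and the co-stimulator Cd86 at 0.69, with unadjusted p of 0.0504 and 0.053. When the 3 arrays were left out, 13 of the 16 dendritic cell genes were above 0 (median 0.33), and 6 had an unadjusted p under 0.05, beside the same 4.34%.

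Among lymphocyte genes the interaction was uneven. Gzma, a granzyme of cytotoxic T cells and NK cells, was at 5.01, 4.55, 4.94 and 4.90 in control, 5.35, 5.60, 4.79 and 6.04 under anti-CD40 Ab, 4.75, 4.91, 4.55 and 4.39 under GEM, and 8.04, 7.02, 6.18 and 5.69 under both. The combination overlapped only with the highest anti-CD40 array. The interaction was 1.49 (SE 0.53, 95% interval 0.35 to 2.62, unadjusted p = 0.0137, limma), and 1.99 without the 3 arrays. The activating NK receptor chain Klrk1 was at 0.98, and it was at 0.62 without GEM/anti-CD40 replicate 1. The interaction of Prf1, the pore-forming perforin, was -0.23 with an interval that included 0 (-0.49 to 0.04), but 1 of its 2 probe sets had the opposite sign and their mean was at 0.0575. In the cytotoxic list 18 of 20 genes were above 0 (median 0.31), 17 without the 3 arrays (median 0.39), and the excess over anti-CD40 Ab was the larger part in 15.

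T cell genes had a median of 0.16 (0.17 without the 3 arrays), with 17 of 19 above 0 in both settings, and for 15 of the 19 the larger part was control minus GEM. Within that list only the IL-7 receptor chain Il7r (0.65) had an unadjusted p under 0.05, while Bcl11b, a transcription factor of the T lineage, was at -0.48 (unadjusted p = 0.0689). Of 14 regulatory T cell and checkpoint genes 12 were above 0 (median 0.45). Those with an unadjusted p under 0.05 were Havcr2 (0.60), which encodes TIM-3, the PD-1 ligand Pdcd1lg2 (0.67) and the IL-2 receptor chain Il2ra (0.46). The other probe set of Il2ra was at 0.04. B cell and plasma cell genes were split, with 7 of 14 above 0 and a median of -0.0037.

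Interferon-inducible GTPases had a positive interaction in which control minus GEM was mostly the larger part. All 10 measured genes of the guanylate-binding protein (GBP) and immunity-related GTPase (IRG) families, which attack the membranes around intracellular pathogens, were above 0 with a median of 0.97. Control minus GEM was the larger part in 9 of the 10 (median 0.66), and the excess over anti-CD40 Ab had a median of 0.29. The first of these medians moved with single arrays, to 0.42 without control replicate 1 and to 0.30 without control replicate 4, where the parts were about equal. The combination had the highest of the 4 group means in all 10. None had an unadjusted p under 0.05 for the interaction or in the joint tests for the rise and the recovery. The arrays within a group were far apart.

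These genes are controlled through short promoter elements that interferon-activated factors bind, so the promoters of the list members selected by p are shown where a motif was found. The 250 bases before the annotated start are from RefSeq (GRCm38.p6), 5′ to 3′ on the gene's strand, with matches in capitals. The core of the interferon-stimulated response element was searched as GAAANNGAA and the gamma-activated site as TTCNNNGAA, on both strands. Irgm1 (chr11:48871421-48871670, minus strand) holds a pair of overlapping response element cores, Gbp2 (chr3:142620413-142620662, plus strand) holds 1 on the opposite strand, and Irf8 (chr8:120736108-120736357, plus strand) holds 2 gamma-activated sites.
Irgm1: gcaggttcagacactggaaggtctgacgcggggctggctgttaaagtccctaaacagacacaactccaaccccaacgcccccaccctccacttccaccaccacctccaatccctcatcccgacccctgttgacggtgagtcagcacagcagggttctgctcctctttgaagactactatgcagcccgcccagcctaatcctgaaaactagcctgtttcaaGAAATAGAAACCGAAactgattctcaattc
Gbp2: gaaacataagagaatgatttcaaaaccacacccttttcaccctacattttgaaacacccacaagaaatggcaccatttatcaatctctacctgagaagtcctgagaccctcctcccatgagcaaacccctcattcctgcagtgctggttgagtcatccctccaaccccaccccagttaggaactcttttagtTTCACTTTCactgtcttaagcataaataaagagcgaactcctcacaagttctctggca
Irf8: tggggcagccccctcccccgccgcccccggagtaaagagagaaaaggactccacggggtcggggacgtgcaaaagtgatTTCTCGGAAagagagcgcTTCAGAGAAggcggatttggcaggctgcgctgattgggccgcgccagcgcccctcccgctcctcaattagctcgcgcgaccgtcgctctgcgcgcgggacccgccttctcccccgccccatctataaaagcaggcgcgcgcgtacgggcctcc
The matches end 21 and 15 bases before the start in Irgm1, 49 in Gbp2, and 162 and 144 in Irf8. Of all genes in the promoter table, 8.18% hold the response element core and 8.13% the gamma-activated site in at least 1 such promoter. Of the 7 GBP and IRG genes with an entry in the promoter table, 6 hold the response element core and 3 the gamma-activated site. Of the 11 interferon gamma genes with an entry these counts were 4 and 3, of 19 type I interferon genes 9 and 4, of 11 MHC class I genes 2 and 2, and of 6 MHC class II genes 0 and 1. Ifi47, Jak1 and the other start of Irf8 held no match in this window.

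Gbp2 and Irgm1, whose promoters are shown, had the smallest p of the GTPases. Gbp2 was at 12.30, 10.47, 10.83 and 12.51 in control, 12.57, 12.53, 12.07 and 12.78 under anti-CD40 Ab, 10.07, 12.06, 10.63 and 10.39 under GEM, and 13.44, 13.06, 12.39 and 12.35 under both. Control replicates 1 and 4 were near the anti-CD40 level and replicates 2 and 3 near the GEM level, while GEM replicate 2 was near the high control arrays. The interaction was 1.06 with a 95% interval of -0.35 to 2.47 (unadjusted p = 0.129, limma), and its parts were 0.74 (control minus GEM) and 0.32. Irgm1, an IRG protein that regulates the other members, had the same split among its control arrays (10.68, 9.53, 9.92 and 10.84) and an interaction of 0.70.

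The split in control was shared by the list. The mean of the GBP and IRG genes was 10.4, 8.45, 8.89 and 10.7 in control, 10.6, 10.6, 10.5 and 11.1 under anti-CD40 Ab, 8.26, 9.98, 8.83 and 8.70 under GEM, and 11.9, 11.3, 10.4 and 10.6 under both. Control and GEM overlapped, and so did anti-CD40 Ab and the combination. The list median was 0.62 without control replicate 4 and 1.34 without control replicate 2, the control array with skin genes. Without the 3 arrays with skin or muscle genes it was 1.49, with 4 of 10 at an unadjusted p under 0.05, beside 4.34% of all genes in that setting.

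Among genes of interferon gamma signaling and its targets the larger part differed between genes. All 15 measured were above 0 (median 0.98), and the excess over anti-CD40 Ab was the larger part in 10. Irf8, a transcription factor of macrophages and cross-presenting dendritic cells, was at 7.55, 6.86, 6.82 and 7.98 in control, 7.32, 7.24, 7.37 and 7.69 under anti-CD40 Ab, 6.67, 7.02, 7.16 and 7.54 under GEM, and 9.34, 8.45, 7.35 and 8.24 under both. Except for replicate 3 the combination was above all other arrays. The interaction was 1.14 (SE 0.48, 95% interval 0.12 to 2.17, unadjusted p = 0.0307, limma). The receptor kinase Jak1 was at 0.30 (unadjusted p = 0.0399), where 1 of its 3 probe sets had the opposite sign. The transcription factor Irf1 (0.79) and the feedback inhibitor Socs1 (0.92) had an unadjusted p above 0.05. The list had 2 genes under 0.05 with all arrays and 10 without the 3 arrays (median 1.29), beside 4.34% of all genes in that setting. It had 9 without GEM/anti-CD40 replicate 3, beside 4.45%, and 0 without GEM/anti-CD40 replicate 1, where its median was 0.60.

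In the type I interferon response all 26 measured genes were above 0, with a median of 0.47. Control minus GEM was the larger part in 21 of the 26 (median 0.35), and the median excess over anti-CD40 Ab was 0.045, so that the combination was close to the level with anti-CD40 Ab alone. Ifit3, an antiviral protein, was at 8.18, 7.80, 7.44 and 7.94 in control, 8.69, 8.63, 9.06 and 8.97 under anti-CD40 Ab, 6.81, 7.01, 6.72 and 6.82 under GEM, and 10.03, 8.61, 7.89 and 8.29 under both. Every GEM array was below every control and every combination array. GEM alone was 1.00 below control, the combination was 1.86 above GEM and 0.13 below anti-CD40 Ab, and the interaction was 0.87 with an interval of -0.10 to 1.83. Without GEM/anti-CD40 replicate 1, the highest array of the combination, it was 0.43. The joint p of Ifit3 for the recovery was 0.0034 unadjusted and 1 after adjustment (limma). In all, 6 genes of the list had an unadjusted joint p under 0.05 for the recovery, beside 1.01% of all probe sets. For the rise there were 0, beside 2.32%. The recovery had no overlap in 4 of the 26 genes, beside 0.22% of all probe sets. The median was 0.16 without GEM/anti-CD40 replicate 1 and 0.57 without the 3 arrays.

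Antigen presentation genes had both parts above 0. Control minus GEM was the larger part in 14 of 14 MHC class I genes (median interaction 0.55, all above 0) and in 8 of 9 MHC class II genes (median 0.85, all above 0). The excess over anti-CD40 Ab had a median of 0.21 in class I and 0.32 in class II. Without control replicate 4 the class I median of control minus GEM was 0.18 and no longer the larger part. H2-Aa, a class II chain, was at 12.10, 11.17, 11.03 and 12.01 in control, 11.66, 11.81, 11.24 and 12.31 under anti-CD40 Ab, 10.62, 11.09, 11.08 and 11.38 under GEM, and 12.62, 12.34, 11.63 and 11.70 under both. The combination was above all GEM arrays but overlapped with the other groups. Its interaction was 0.85 (95% interval -0.02 to 1.73), of which 0.54 was control minus GEM. The genes with an unadjusted p under 0.05 were the class II chaperone chains H2-Oa (0.93) and H2-Ob (0.69) and the proteasome activator Psme1 (0.39). Without the 3 arrays the medians were 0.79 for class I and 1.13 for class II, with 4 of 14 and 7 of 9 genes under 0.05, beside 4.34% of all genes in that setting. Without GEM/anti-CD40 replicate 1 they were 0.33 and 0.58, with 0 of 14 and 1 of 9, beside 2.48%.

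**Figure D4:**
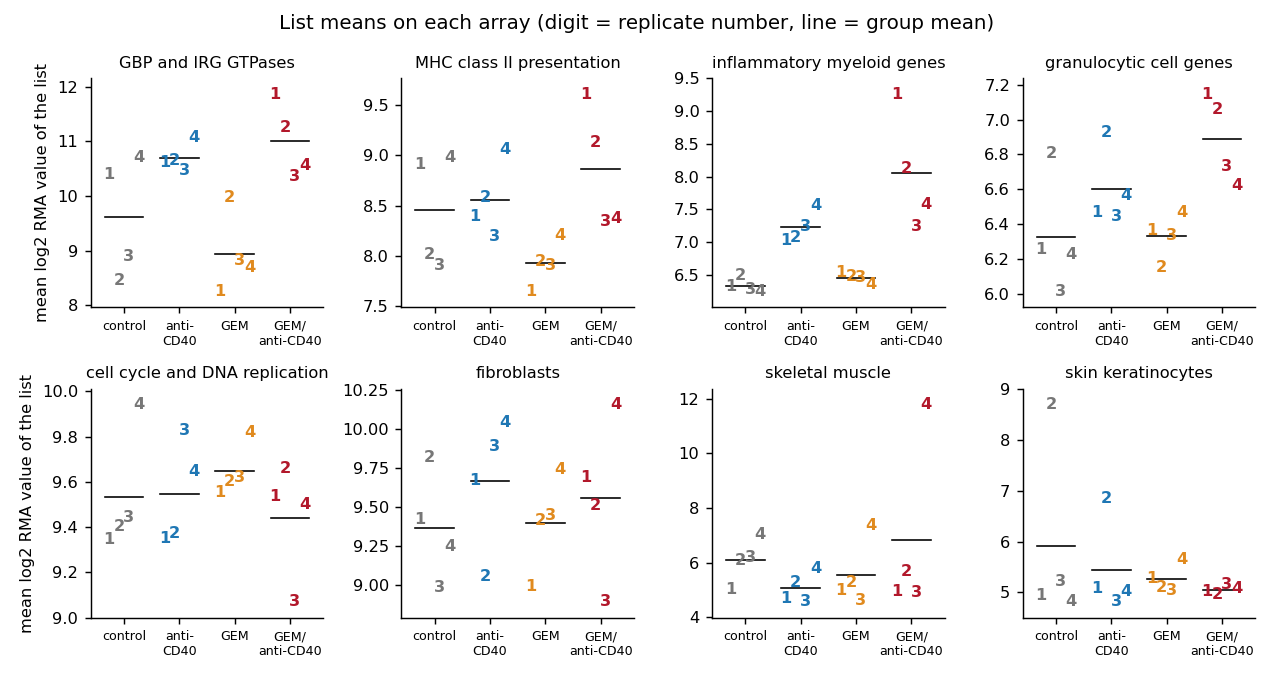
Mean log2 RMA value (y axis) of the genes of 8 lists on each array, by treatment group on the x axis, where digits are replicate numbers and lines are group means. The GBP and IRG mean is 10.4 and 10.7 in control replicates 1 and 4 but 8.45 and 8.89 in replicates 2 and 3, inflammatory myeloid genes are highest in GEM/anti-CD40 replicate 1 (9.26), and muscle and skin genes stand out in the 3 arrays named in the text.

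Of the 19 chemokines measured, 3 had the recovery with no overlap between GEM and the control or combination arrays, beside 0.22% of all probe sets. Ccl3, a chemokine that attracts monocytes and other leukocytes, was at 6.33, 6.09, 5.72 and 6.26 in control, 5.57, 4.91, 5.71 and 5.54 under GEM, and 7.39, 6.36, 6.43 and 5.90 under both. Its lowest control array lay just above its highest GEM array. The interaction was 0.73 (unadjusted p = 0.0713, limma), with 0.67 from control minus GEM and 0.06 from the excess over anti-CD40 Ab (6.02 to 6.80). The related Ccl4 had the same pattern at 0.40. Ccl3 was at 0.44 and Ccl4 at 0.18 when GEM/anti-CD40 replicate 1 was left out. Of 19 chemokines 14 were above 0 (median 0.35), and Cxcl16 alone had an unadjusted p under 0.05 (0.46). The median was 0.17 without anti-CD40 replicate 2, 0.20 without GEM/anti-CD40 replicate 1 and 0.21 without the 3 arrays.

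The recovery of a GEM fall with the smallest joint p was outside the immune lists. Ephx2, the soluble epoxide hydrolase, was at 9.06, 8.95, 8.98 and 9.12 in control, 8.74, 9.19, 8.57 and 8.80 under anti-CD40 Ab, 8.58, 8.12, 8.47 and 8.60 under GEM, and 9.15, 9.13, 9.29 and 8.71 under both. Every GEM array was below every control and every combination array. The interaction was 0.83 (SE 0.20, 95% interval 0.40 to 1.26, unadjusted p = 0.00084, limma), of which 0.58 was control minus GEM. Without the 3 arrays it was 1.10 with an adjusted p of 0.19, the smallest in that setting. Mgarp, a mitochondrial protein linked to hypoxia, was 0.59 below control with GEM and 0.86 above GEM in the combination. Bnip3, a mitophagy receptor induced by hypoxia, had corresponding values of 0.38 and 0.45.

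Other genes with the smallest recovery p were Hoxa7 (interaction 0.40), Ap5b1 (0.38), Pcgf5 (0.36, where 1 of 3 probe sets had the opposite sign), Ccdc85b (0.20) and Ripor2 (1.05). Among genes above 0 in the interaction itself, Znhit1 (0.30), Rab30 (0.57), Apbb1ip (0.49), Ccdc87 (0.42), Crygd (0.43), A2ml1 (0.26), Coro1b (0.37), Exoc6 (0.35) and Prkcd (0.35) followed Camp and Ephx2, at unadjusted p of 0.00085 to 0.0027. Exoc6 and Prkcd each had 1 probe set of the opposite sign, of 4 and 2. The other probe set of Apbb1ip was at 0.06, and those of Ripor2 were at 0.1475 to 0.4175. Apbb1ip is an adaptor of integrin activation in leukocytes, Coro1b an actin regulator and Prkcd a protein kinase C. Several of the genes above 0 had both single agents below control and the combination near control. For Coro1b the differences from control were -0.13 under anti-CD40 Ab, -0.17 under GEM, and 0.07 under both.

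Of 13 genes of hypoxia and glycolysis 12 were above 0 (median 0.29), and control minus GEM was the larger part in 10. The glycolytic regulator Pfkfb3 (0.64) alone had an unadjusted p under 0.05, while 6 did without control replicate 4 (beside 2.91% of all genes) and none did without control replicate 1, where the median was 0.14.

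Of the 419 genes below 0 at an unadjusted p under 0.05, the combination had the lowest of the 4 group means in 220 (52.5%, beside 48.2% of all genes below 0). In the others the highest single agent was GEM for 118 (28.2%, beside 29.5%) and anti-CD40 Ab for 81 (19.3%, beside 22.4%). Several genes with a small p had a high level under GEM. Rfng, a fringe glycosyltransferase that modifies Notch receptors, had the smallest interaction p of all probe sets (3.4e-05 unadjusted, limma). It was at 8.09, 8.12, 8.05 and 8.17 in control, 8.33, 8.25, 8.27 and 8.28 under anti-CD40 Ab, 8.34, 8.38, 8.38 and 8.37 under GEM, and 8.16, 8.15, 8.14 and 8.22 under both. Each single-agent array was above each control and each combination array. The interaction was small but tight at this probe set (-0.37, SE 0.065, 95% interval -0.51 to -0.24), and it was -0.41 without the 3 arrays. Its adjusted p was 0.89. The other probe set of Rfng was at -0.10 (SE 0.10, unadjusted p = 0.35, limma).

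Myzap, a cell junction protein, was at 7.94, 7.70, 7.86 and 7.56 in control, 8.19, 8.04, 8.59 and 7.93 under anti-CD40 Ab, 8.38, 8.41, 8.35 and 8.48 under GEM, and 7.79, 7.83, 8.15 and 8.05 under both. GEM alone was above all control and combination arrays, and the interaction was -0.87 (SE 0.18, unadjusted p = 0.000189, limma). Tcf24, a basic helix-loop-helix factor, was at 6.48 to 6.71 in control, 6.62 to 7.13 under anti-CD40 Ab, 7.34 to 7.57 with GEM and 6.78 to 7.29 with both, an interaction of -0.75. The uncharacterized transcript AU021092 had the smallest joint p for the loss. It was at 6.02 to 6.38 in control and 6.13 to 6.36 in the combination but at 6.78 to 6.93 with GEM, and its interaction was -0.41.

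Stxbp4 (-0.63), Neto2 (-0.63), Lpar6 (-0.37), Fbxl6 (-0.39) and the DNA helicase Ddx11 (-0.20) had the same pattern or close to it. Other probe sets were at -0.2775 to -0.0375 for Stxbp4 and at -0.2325 and -0.1075 for Neto2. Levels in the combination were below both single agents for Cstf2, a factor of mRNA 3′ end cleavage, which was at 10.25 to 10.29 with both and at 10.39 to 10.73 under anti-CD40 Ab and 10.48 to 10.62 with GEM (interaction -0.34). Others with small joint p for the fall were Hoxa13 (-0.38), Spock3 (-0.45), Gm6787 (-0.41), Rpl27a (-0.60), D2hgdh (-0.22) and Gm29805 (-0.26). Gm6787 and D2hgdh each had 1 of 2 probe sets of the opposite sign. Other probe sets had smaller values for Spock3 (-0.0625), Rpl27a (-0.065) and Cstf2 (-0.0475 and -0.1075). The remaining genes of smallest p below 0 were 4632415L05Rik (-0.43, with 2 of its 3 probe sets of the opposite sign), 3010003L21Rik (-0.54), Tmem199 (-0.37) and Dusp11 (-0.29, with 1 of 2).

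Ptn, the heparin-binding growth factor pleiotrophin, had the largest distance from control among the genes named for this pattern. It was at 7.16, 7.75, 7.03 and 8.31 in control, 6.33, 6.39, 7.05 and 6.86 under anti-CD40 Ab, 6.88, 7.30, 7.01 and 7.78 under GEM, and 4.49, 5.98, 5.41 and 6.23 under both. The combination was below every other array. It was 2.04 below control, against 0.91 under anti-CD40 Ab and 0.32 with GEM, and the remaining interaction of -0.81 had an interval that included 0 (-1.87 to 0.25). Without GEM/anti-CD40 replicate 1 it was -0.46. The other probe sets of Ptn were at -0.3425 and -0.04. The genes below -1 with an unadjusted p under 0.05 were the mast cell protease Mcpt1 (-1.28), the protease inhibitor Pzp (-1.30) and Car8 (-1.02), which were named after their values were seen. Mcpt1 was 1.05 above control with GEM alone and 0.40 above it in the combination.

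Genes of the processes on which GEM acts had medians close to or below 0. Of 29 genes of the cell cycle and DNA replication 27 were below 0, with a median of -0.21 and none at an unadjusted p under 0.05. Control minus GEM had a median of -0.12 and the combination minus anti-CD40 Ab one of -0.11. The replication helicase subunits Mcm3 (-0.36) and Mcm4 (-0.16) and the sliding clamp Pcna (-0.14) had the smallest p. The list mean was 9.35 to 9.94 in control, 9.35 to 9.82 under anti-CD40 Ab, 9.55 to 9.82 with GEM and 9.07 to 9.66 with both, so that all groups overlapped. The median was between -0.37 and -0.11 when each array was left out. Without control replicate 4 it was at the lower end, with 6 genes below 0 at an unadjusted p under 0.05 (beside 3.01% of all genes), and without GEM/anti-CD40 replicate 2 there were 4 (beside 2.29%).

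Genes of GEM uptake, activation and targets were at a median of -0.03 with 6 of 14 above 0. Samhd1, which removes the triphosphates of such analogs and responds to interferon, was at 0.61 (unadjusted p = 0.154). Of 16 p53 targets 11 were above 0 (median 0.09), with the cell cycle inhibitor Cdkn1a (0.69) and the BH3 protein Bbc3 (0.31) at an unadjusted p under 0.05. Of 14 cell death genes 12 were above 0 (median 0.20), and the receptors Fas (0.69) and Tnfrsf1b (0.53) were above 0 at that threshold while Casp8 was below it (-0.18). Of 13 genes of MEK/ERK output 2 were above 0 (median -0.09), and Phlda1 (-0.29) and the feedback inhibitor Spry4 (-0.46) were below 0 at that threshold. The other probe sets of Spry4 were at -0.075, -0.1275 and -0.0375.

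**Figure D5:**
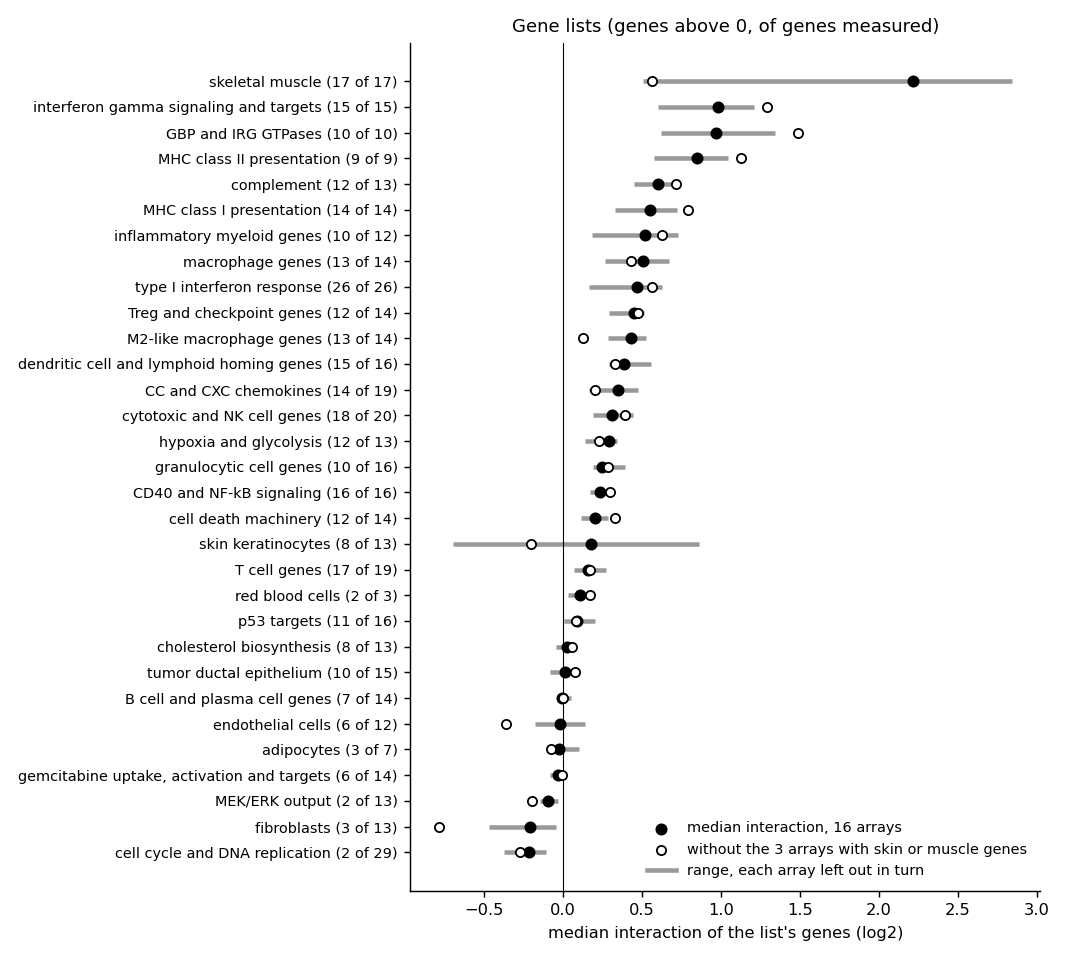
Median interaction (x axis, log2) of the measured genes of 31 lists (rows, with genes above 0 of genes measured), with all arrays (filled), without the 3 arrays with skin or muscle genes (open) and the range when each array was left out in turn (grey). GBP and IRG (0.97), interferon gamma (0.98) and MHC class II genes (0.85) are the highest immune lists, the skeletal muscle median moves from 2.22 to 0.51 without GEM/anti-CD40 replicate 4, and cell cycle genes are at -0.21.

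Complement genes were mostly above 0 (12 of 13, median 0.60), with the C1q chains C1qb (0.79) and C1qc (0.73) among the smallest p and none under 0.05. Ductal epithelial, cholesterol and adipocyte lists were close to 0, while fibroblast and endothelial genes were further below 0 without the arrays that stood apart. Ductal epithelial genes had a median of 0.01, with 10 of 15 above 0, and Cftr, the chloride channel of duct cells, was at -0.38. Cholesterol synthesis genes were at 0.03, adipocyte genes at -0.02 with 3 of 7 above 0, and red blood cell genes at 0.11 with 2 of 3. Fibroblast genes were at -0.21 with 10 of 13 below 0, and at -0.78 without the 3 arrays, where 5 had an unadjusted p under 0.05 below 0 (beside 3.24% of all genes). Postn, a matrix protein of fibroblasts, was at -0.63 with all arrays and at -1.10 without the 3. Endothelial genes were at -0.01, and at -0.36 without the 3.

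The skin and muscle lists also differed in the contrast itself. All 17 muscle genes were above 0 with a median of 2.22, which was 0.51 without GEM/anti-CD40 replicate 4. Skin genes had a median of 0.18, with 8 of 13 above 0, which was -0.69 without control replicate 2 and 0.86 without anti-CD40 replicate 2. The part of these cells in the interactions of other genes was not tested beyond leaving the arrays out. Within the combination, replicate 1 was the highest array for most immune lists and replicate 3 among the lowest. The inflammatory myeloid mean was 9.26, 8.12, 7.24 and 7.58 in the 4 replicates, and the MHC class II mean was 9.61, 9.13, 8.35 and 8.37. Single genes also moved by over 1.5 times without replicate 1 of the combination, which put Cd40 at 0.565, Il12b at 0.54, Cd86 at 0.405, Il2ra at 0.30, Socs1 at 0.57, H2-Oa at 0.58 and Samhd1 at 0.30. H2-Ob was at 0.44 without control replicate 4, and without anti-CD40 replicate 2 Ccl9 was at 0.25 and Ccl6 at 0.17. Among the list medians given above, that of T cell genes was 0.07 without anti-CD40 replicate 3, that of cytotoxic genes 0.19 without GEM/anti-CD40 replicate 2, and that of p53 targets 0.01 without control replicate 1. Without GEM/anti-CD40 replicate 1, regulatory T cell and checkpoint genes were at 0.29 and cell death genes at 0.11.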

How the data were processed

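Per the labels, 200 ng of total RNA from each tumor was labelled by a 3′ in vitro transcription kit and hybridized to 1 array. What the authors deposited are log2 intensities per probe set, background-corrected and normalized between arrays by RMA. Which arrays were normalized together is not given in the sources used here. Precision is limited by the 4 arrays a group.

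Of 45101 probe sets, 64 array controls were left out. The annotation gave 34945 probe sets 1 gene symbol and 932 several, and 9160 are unnamed here. A gene is represented by its probe set with the highest mean over the arrays, which decided between several for 9010 of 18193 genes. Group means were fitted with limma 3.58.1 in R 4.3.3 with moderated variances, two-sided, and adjusted over 45037 probe sets. The empirical Bayes test of the methods was thereby extended to the 4-group contrast. A joint test takes the larger one-sided p of its 2 comparisons. The rise and the fall compare the combination with each single agent, and the recovery and the loss compare GEM with control and with the combination. SE and intervals are limma's. The fit was tested on simulated data.

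Members and lists (31, with 453 of 501 genes measured) were chosen with earlier results of these data known. Named are the 12 genes with the smallest interaction p in each direction, the 8 with the smallest joint p per pattern, up to 4 per list and Cd40, from which the text takes most. Promoters are those of the 3 GTPases and the 2 interferon gamma genes with the smallest p and an entry. Alternatives were the 75th percentile, quantile normalization, a trended and robust prior, array weights, dim or cross-hybridizing probe sets left out, the mean of probe sets, unlogged intensities, each array left out, the 3 arrays left out, GEM replicates 3 and 4 averaged, and a replicate block.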

Additional observations from a re-analysis of the deposited data

Results flagged for a closer look

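In 23 of the 604 groups of 4 arrays that were examined, the highest or lowest array stood apart from the other 3 by more than Dixon's critical value at 95%, which chance alone gives in about 1 of 20 groups. Of the lists, the skeletal muscle mean stood at 11.77 in GEM/anti-CD40 replicate 4, the skin keratinocyte mean at 8.69 in control replicate 2 and at 6.85 in anti-CD40 replicate 2, the cell death mean at 7.72 in GEM replicate 2 and the cell cycle mean at 9.94 in control replicate 4. Of the genes, anti-CD40 replicate 4 was high for Acod1 (8.68), Tyrobp (10.76), Klrd1 (7.16), Ifi47 (11.15) and C1qb (10.97), and anti-CD40 replicate 3 was low for Dcstamp (5.83) and Cxcl16 (9.72). In the combination, replicate 4 was high for Retnla (6.72), replicate 1 was high for Bnip3 (12.33) and Casp8 (10.44), and replicate 2 was low for Tmem199 (8.08). With GEM, replicate 4 was low for Bcl11b (7.98) and replicate 3 high for A2ml1 (4.03). In control, replicate 3 was low for Ctla4 (4.31) and Spry4 (6.70), replicate 4 was low for Ripor2 (6.07), and replicate 1 was high for Ap5b1 (7.26) and low for D2hgdh (9.15). The part of these arrays in the interactions was measured only by leaving them out.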

How the results depend on the processing

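The counts at an adjusted p under 0.05 stayed at 0 for the interaction and for all 4 patterns under every log2 setting, with smallest adjusted p over these settings of 0.194 (interaction), 0.0746 (rise), 0.605 (recovery), 0.975 (fall) and 0.0841 (loss). On unlogged intensities, where additive effects are the reference, 1 probe set passed for the interaction (Rfng, adjusted p = 0.0046) and 2 for the loss of a GEM rise (AU021092 and Rfng, adjusted p = 0.0257 each). With each array left out in turn, all of these counts ranged from 0 to 0. Counts at an unadjusted p under 0.05 then ranged from 1856 (without anti-CD40 replicate 3) to 3037 (without GEM/anti-CD40 replicate 3) for the interaction, and for the rise from 827 to 1711, the latter without GEM/anti-CD40 replicate 3. They were 3032 for the interaction, 1154 for the rise and 642 for the recovery when the 3 arrays with skin or muscle genes were left out. Deviations of same-numbered arrays from their group means had correlations between groups of -0.27 to 0.27, with 10 of 24 over 0.1. Arrays of different number were not compared, so these values cannot decide whether replicate numbers pair the tumors. The fit with the replicate number as a block gave 0 calls for the interaction of GEM and anti-CD40 (2309 unadjusted) and for each pattern. Across 27 settings the interaction of Prf1 turned, to 0.0575 with the mean of its probe sets, and 38 of 836 list medians moved by more than the spread between arrays, which includes those on unlogged intensities, where the unit differs.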
